A study of Mus musculus with 12 samples.

Results

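The slow-fibre contractile genes are the 10 genes that encode the slow or slow-enriched parts of the sarcomere named here: Tnni1, Tnnt1, Tnnc1, Myh7, Myl2, Myl3, Tpm3, Myh7b, Myoz2 and Ankrd2. They were chosen by symbol, with earlier results of these data known. All 10 were found among the 15344 genes of the deposited mouse quadriceps tables. RNA-seq was run on quadriceps of C57BL/6 mice aged 6 months, with 4 libraries in each of 3 groups. The WT group was wild-type for Gaa, the acid alpha-glucosidase gene, and no treatment is described for it. The KO group carried the GAA Knock-out and received PBS. The AAV group carried the same GAA Knock-out and received AAV2/8-LSPhGAApA, a vector whose liver-specific promoter drives human GAA. It was given by tail vein at the age of 2 months, that is 4 months before harvest. The dose in the AAV group was 2e12 vector genomes per kg. The muscle of that group was thus exposed to enzyme made in the liver and carried in blood, and each quadriceps was divided between RNA and enzyme or glycogen assays. The sources do not give which portion of the muscle went to RNA, and only the knock-out mice are described as male.

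Skeletal muscle fibres are slow (type I) or fast (type IIA, IIX and IIB) according to the myosin heavy chain and the thin-filament and light-chain isoforms they carry. Slow fibres contract slowly, rely on oxidative metabolism and resist fatigue, and they are sparse in most of the mouse quadriceps, where fast glycolytic fibres prevail. Calcium binds troponin C, troponin I releases its inhibition, troponin T anchors the complex on tropomyosin, and myosin heads with their light chains then pull on actin. In Pompe disease, loss of acid alpha-glucosidase leaves glycogen in the lysosomes of muscle.

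Introns of Myh7 and Myh7b hold the microRNAs Mir208b and Mir499, and GENCODE annotates another microRNA gene, Gm22066, within Myoz2. The first 2 are shown because their seeds (bases 2 to 8, in capitals) are closely alike. The microRNAs themselves were not measured here. The mature sequences are from RefSeq on GRCm38.p6. The first lies in an intron of Myh7 on the minus strand at chr14:54975710-54975731 and the second in an intron of Myh7b on the plus strand at chr2:155622893-155622913.
miR-208b-3p: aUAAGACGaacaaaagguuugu
miR-499-5p: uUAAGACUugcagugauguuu

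Promoter windows of 300 bases (250 before to 50 after a start site, RefSeq, GRCm38.p6) were found for all 10 genes, 14 windows in total. They were searched on both strands for the E-box CANNTG, the MCAT element CATTCC and the MEF2 element, none of whose matches overlapped each other in these windows. The 2 windows of Tnni1 share 210 bases and those of Myh7 223, so the 14 are not all separate. An E-box match stood in 14 of 14 windows and in 10 of 10 genes, against 72.3% of 32544 windows of the same length. An MCAT match stood in 3 of 14, in Tnnc1, Myl3 and Myh7, against 14.6% of all windows. A MEF2 match stood in 1 of 14, in Myoz2, against 3.162% of all windows. Of the windows, 4 are printed: that of Tnni1, the gene of the 10 with the largest difference between KO and WT below, those of Tnnc1 and Myl3 for their MCAT matches, and that of Myoz2 for its MEF2 match. Capitals mark the matches of the 3 motifs, which are a description of letters and not of binding. The windows are chr1:135799171-135799470 (plus strand), chr14:31208062-31208361 (plus), chr9:110763428-110763727 (plus) and chr3:123034938-123035237 (minus).
Tnni1: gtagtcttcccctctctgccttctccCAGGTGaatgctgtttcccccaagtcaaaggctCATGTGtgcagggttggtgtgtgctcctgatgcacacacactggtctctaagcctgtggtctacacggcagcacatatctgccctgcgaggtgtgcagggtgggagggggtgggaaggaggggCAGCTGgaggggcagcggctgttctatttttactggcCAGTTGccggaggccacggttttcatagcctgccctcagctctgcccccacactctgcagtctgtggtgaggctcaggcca
Tnnc1: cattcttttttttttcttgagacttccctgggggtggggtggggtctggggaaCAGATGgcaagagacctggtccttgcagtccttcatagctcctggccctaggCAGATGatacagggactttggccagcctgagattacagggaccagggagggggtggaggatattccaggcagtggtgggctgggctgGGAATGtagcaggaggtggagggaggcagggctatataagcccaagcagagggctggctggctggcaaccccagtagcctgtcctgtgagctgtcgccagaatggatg
Myl3: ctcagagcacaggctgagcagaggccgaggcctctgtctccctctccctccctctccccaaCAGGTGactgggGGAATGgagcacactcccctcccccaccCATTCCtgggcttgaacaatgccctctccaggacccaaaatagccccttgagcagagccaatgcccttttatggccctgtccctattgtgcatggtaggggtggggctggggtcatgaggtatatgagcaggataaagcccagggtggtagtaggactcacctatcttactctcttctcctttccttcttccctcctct
Myoz2: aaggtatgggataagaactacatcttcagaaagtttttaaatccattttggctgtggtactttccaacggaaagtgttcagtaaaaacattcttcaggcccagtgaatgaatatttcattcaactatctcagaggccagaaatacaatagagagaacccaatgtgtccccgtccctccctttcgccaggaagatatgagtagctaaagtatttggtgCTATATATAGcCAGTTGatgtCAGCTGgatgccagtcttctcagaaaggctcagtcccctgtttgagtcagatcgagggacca

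The values are read counts divided by a size factor for each library (normalized counts), and the reads behind them could be recovered in whole numbers. Total reads per library ran from 32299356 to 47379737 in WT, from 31225360 to 40846896 in KO and from 22122233 to 31974197 in AAV. Gaa, the gene the knock-out targets, went against the labels. It read 343, 14640, 324 and 460 normalized counts in the libraries labelled WT 1 to 4, and 12151, 13075, 11936 and 12895 in those labelled KO. In those labelled AAV it read 947, 587, 500 and 9854. Gaa was thus high in all 4 libraries labelled KO and low in 3 of the 4 labelled WT and in 3 of the 4 labelled AAV, WT 2 and AAV 4 stood apart from their groups, and every direction below is between libraries as labelled. Counts per gene do not show which part of Gaa the reads cover, and the study's measures of enzyme activity and glycogen were not analysed here. The tests of the 10 genes, and summaries of their levels, are also given without WT 2 and AAV 4. Leaving these out keeps Gaa high in all 4 libraries labelled KO, so it cannot resolve the conflict with the labels. Markers that define skeletal muscle were high throughout: Acta1, Ckm, Myh4, Tnnt3, Mylpf, Pygm and Des summed to at least 3690350 normalized counts in every library.

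The first comparison asked how the slow-fibre genes in the libraries labelled KO differed from those labelled WT. Of the 10 genes, 8 were lower in KO and none was higher: Tnni1, Tnnt1, Tnnc1, Myh7, Myl2, Myl3, Myh7b and Myoz2. A gene was called where limma gave an adjusted p under 0.05 and the log2 fold change on log2(value + 1) was at least 1 in size, the study's thresholds. By that rule 8.5% of the 14859 genes tested were called lower and 5.43% higher. The median log2 fold change of the 10 genes was -3.14, and that of all genes 0.02. On adjusted p alone 9 of the 10 were lower, against 15.3% of all genes. The 4 KO libraries lay wholly below the 4 WT libraries for 6 of the 10, against 15.1% of all genes. Since the 10 were chosen with earlier results known, the shares set side by side here and below are a description.

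The second comparison asked how the libraries labelled AAV differed from those labelled KO. All 10 genes were higher in AAV by the same rule, against 5.43% of 14894 genes tested (3.55% were lower), with a median log2 fold change of 4.89 against 0.04 over all genes. For 9 of the 10 the 4 AAV libraries lay wholly above the 4 KO libraries, against 14.8% of all genes, and Myl3 was the exception. Both comparisons use the same 4 KO libraries and are not independent of each other. The third comparison set AAV against WT as labelled, and called none of the 10 with limma, against 0.951% of 14939 genes. There 3 of the 10 (Tnnc1, Myh7 and Tpm3) and 2719 of all genes had an unadjusted p under 0.05, and DESeq2 on the recovered reads called those 3 while edgeR called 0. The median difference between AAV and WT was 1.24 on the log2 scale, and the 4 AAV and the 4 WT libraries overlapped for all 10 genes, where 6.69% of all genes lay wholly higher in AAV and 4.97% wholly lower. In bulk tissue, fewer slow fibres and less slow-fibre RNA in each fibre cannot be told apart.

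**Figure D1:**
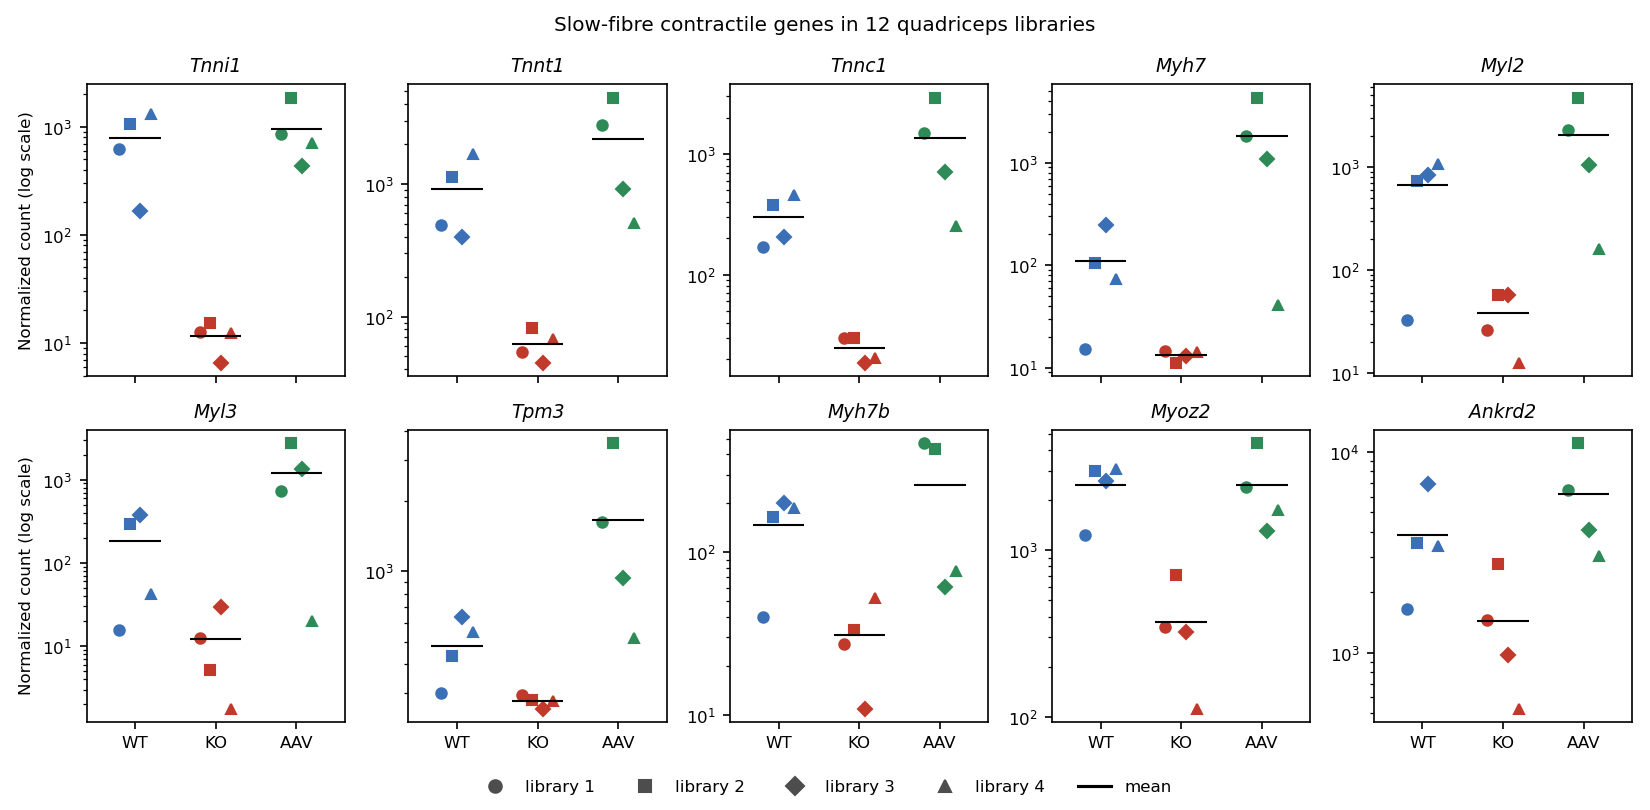
Normalized counts (log scale) of the 10 slow-fibre genes in each library labelled WT, KO or AAV; each symbol is 1 library, marked by its number, and the bar is the mean of 4. Tnni1 lies between 6.53 and 15.4 in KO and between 165 and 1856 in the other groups, and WT 1 sits at KO levels for Myl2, Myl3 and Myh7b.

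All 3 slow troponins differed in both comparisons with KO. Tnni1 encodes slow skeletal troponin I, the inhibitory subunit, which is also used in embryonic muscle (chr1:135779434-135810989, plus strand, GRCm38). It read 625, 1070, 165 and 1309 normalized counts in WT 1 to 4, 12.6, 15.4, 6.53 and 12.4 in KO, and 859, 1856, 437 and 704 in AAV. The KO libraries held 6 to 18 Tnni1 reads each and lay apart from both other groups, with WT 3 the lowest of WT and AAV 3 the lowest of AAV. The log2 fold change was -5.66 (SE 0.57, limma adjusted p = 0.000415) in KO against WT and 6.10 (SE 0.41, adjusted p = 4.77e-05) in AAV against KO. It was 0.44 (SE 0.63, adjusted p = 0.739) in AAV against WT.

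Tnnt1 encodes slow troponin T, the subunit that binds tropomyosin (chr7:4504570-4516382, minus strand). It read 488, 1131, 401 and 1677 in WT 1 to 4, 54.1, 82.1, 44.6 and 67.2 in KO, and 2769, 4469, 920 and 504 in AAV. No KO library reached the lowest WT or AAV library, and AAV 1 and AAV 2 exceeded every WT library. The log2 fold change was -3.67 (SE 0.42, adjusted p = 0.00073, limma) in KO against WT, 4.66 (SE 0.58, adjusted p = 0.00161) in AAV against KO and 0.99 (SE 0.69, adjusted p = 0.469) in AAV against WT.

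Tnnc1 encodes the calcium-binding troponin C of slow and cardiac muscle (chr14:31208312-31211729, plus strand). It read 170, 376, 205 and 459 in WT 1 to 4, 30.0, 29.9, 18.5 and 20.3 in KO, and 1497, 2923, 713 and 251 in AAV. Again KO stood alone, and 3 of the 4 AAV libraries were above every WT library. For KO against WT the log2 fold change was -3.48 (SE 0.33, adjusted p = 0.000296, limma), with 5.23 (SE 0.61, adjusted p = 0.00115) in AAV against KO and 1.75 (SE 0.66, adjusted p = 0.206) in AAV against WT. The fast counterparts Tnni2, Tnnt3 and Tnnc2 were called in none of the comparisons, with log2 fold changes of 0.08, 0.34 and 0.03 in KO against WT and of -0.06, -0.13 and 0.18 in AAV against KO.

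Myh7 encodes the slow, or beta, myosin heavy chain (chr14:54970684-54994626, minus strand). It read 15.4, 106, 248 and 74.1 in WT 1 to 4, 14.5, 11.1, 13.1 and 14.1 in KO, and 1833, 4306, 1095 and 41.3 in AAV. WT 1 was barely above the KO libraries, each of which held 12 to 16 reads, and AAV spread over 104-fold from its lowest library, AAV 4, to its highest. The log2 fold change was -2.42 (SE 0.67, adjusted p = 0.025, limma) in KO against WT and 5.78 (SE 1.13, adjusted p = 0.00856) in AAV against KO. In AAV against WT it was 3.36 (SE 1.31, adjusted p = 0.223), and without AAV 4 it was 4.76 and passed the threshold (adjusted p = 0.0448), while without both WT 2 and AAV 4 it was 4.93 and did not (adjusted p = 0.129). The transcript is 91.8% identical to that of Myh6, the alpha heavy chain, over 94.7% of its length, so the split of reads between them is uncertain. Myh6 averaged 78.0, 36.3 and 421 normalized counts in WT, KO and AAV.

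Myl2 encodes the regulatory light chain of slow and ventricular muscle (chr5:122100951-122113472, plus strand). It read 32.6, 727, 846 and 1083 in WT 1 to 4, 26.1, 56.4, 56.6 and 12.4 in KO, and 2293, 4728, 1052 and 158 in AAV. WT 1 fell inside the KO range, while the other WT libraries were close to each other. Between KO and WT the log2 fold change was -3.55 (SE 1.003, adjusted p = 0.0278, limma), with 5.13 (SE 0.91, adjusted p = 0.00627) in AAV against KO and 1.58 (SE 1.24, adjusted p = 0.519) in AAV against WT.

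Myl3 encodes the essential light chain of slow and ventricular muscle (chr9:110741861-110769798, plus strand). It read 15.4, 290, 376 and 41.9 in WT 1 to 4, 12.6, 5.13, 29.4 and 1.77 in KO, and 740, 2733, 1335 and 20.2 in AAV. WT 1 and AAV 4 lay inside the KO range, where the counts rest on 2 to 27 reads, and AAV spread over 135-fold. Myl3 differed by -3.36 on the log2 scale (SE 1.04, adjusted p = 0.0382, limma) in KO against WT, by 5.74 (SE 1.34, adjusted p = 0.0153) in AAV against KO and by 2.38 (SE 1.49, adjusted p = 0.42) in AAV against WT. The fast regulatory light chain Mylpf was called in neither of the comparisons with KO (log2 fold changes -0.38 and -0.25). The fast essential light chain Myl1 was higher in KO than in WT (log2 fold change 1.11, SE 0.20, adjusted p = 0.00514) and lower in AAV than in KO (-1.88, SE 0.31, adjusted p = 0.00514, limma). Without KO 4 the first of these was 0.98, under the fold threshold.

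Tpm3 encodes slow alpha-tropomyosin, and the same gene makes non-muscle tropomyosins that counts per gene do not separate (chr3:90072649-90100902, plus strand). It read 302, 432, 636 and 548 in WT 1 to 4, 294, 281, 258 and 279 in KO, and 1629, 3538, 940 and 519 in AAV. The KO libraries varied least among the 10 genes, 1.14-fold from lowest to highest, and stood just below WT 1. The log2 fold change in KO against WT was -0.73 (SE 0.21, adjusted p = 0.031, limma), which is under the fold threshold. It was 2.22 (SE 0.46, adjusted p = 0.0106) in AAV against KO and 1.49 (SE 0.51, adjusted p = 0.171) in AAV against WT. A near copy, Tpm3-rs7, is 99.1% identical over 94.5% of a Tpm3 transcript and averaged 26.9 normalized counts or fewer in each group. Only reads at a single location were kept, so reads that match both equally were dropped. The Tpm3 counts, and its levels per kilobase and ratio to Tpm1 below, may thus be too low. Tpm1, the fast counterpart, was called in none of the comparisons.

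Myh7b encodes a slow-type myosin heavy chain whose transcript carries miR-499 (chr2:155611212-155634307, plus strand). It read 39.8, 165, 200 and 188 in WT 1 to 4, 27.1, 33.4, 10.9 and 52.2 in KO, and 469, 431, 61.4 and 76.2 in AAV. WT 1 lay inside the KO range, and AAV fell into a high and a low pair of libraries. Log2 fold changes were -2.18 (SE 0.57, adjusted p = 0.0213, limma) in KO against WT, 2.66 (SE 0.71, adjusted p = 0.0244) in AAV against KO and 0.48 (SE 0.76, adjusted p = 0.762) in AAV against WT.

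Myoz2 encodes calsarcin-1, a Z-disc protein of slow and cardiac muscle that binds alpha-actinin and calcineurin (chr3:123006206-123035015, minus strand). It read 1225, 2996, 2593 and 3065 in WT 1 to 4, 345, 706, 322 and 112 in KO, and 2405, 4367, 1300 and 1751 in AAV. KO was below both other groups in every library, and the AAV and WT means were 2456 and 2470. Myoz2 had log2 fold changes of -2.92 (SE 0.49, adjusted p = 0.00405, limma) in KO against WT, 2.85 (SE 0.52, adjusted p = 0.00675) in AAV against KO and -0.07 (SE 0.40, adjusted p = 0.941) in AAV against WT. Its fast counterpart Myoz1 was called in none of the comparisons, with log2 fold changes from -0.28 to 0.12.

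Ankrd2 encodes a stretch-responsive ankyrin-repeat protein that binds titin and is enriched in slow fibres (chr19:42036000-42045110, plus strand). It read 1660, 3507, 6944 and 3406 in WT 1 to 4, 1460, 2767, 980 and 528 in KO, and 6498, 11035, 4065 and 3021 in AAV. WT 1 and KO 2 made the groups overlap. Its log2 fold change in KO against WT was -1.51 (SE 0.51, adjusted p = 0.0528, limma) and did not pass, whereas without WT 1 it was -1.86 (adjusted p = 0.0358) and without KO 2 -1.91 (adjusted p = 0.0283). With all 8 libraries, DESeq2 gave -1.44 (adjusted p = 0.0138) and limma with total-read scaling -1.52 (adjusted p = 0.049), both called. It was 2.18 (SE 0.51, adjusted p = 0.0151) in AAV against KO and 0.67 (SE 0.47, adjusted p = 0.473) in AAV against WT.

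**Figure D2:**
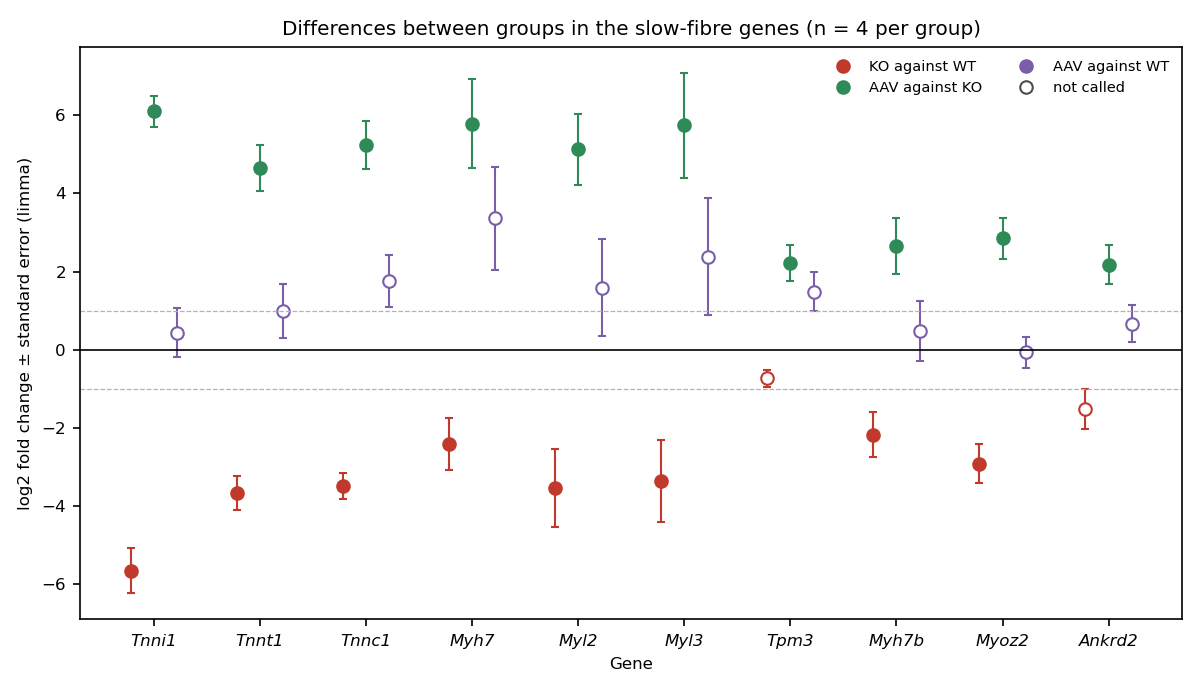
Log2 fold change with its standard error (limma on log2 of the value plus 1) for each of the 10 genes in the 3 comparisons of 4 against 4 libraries as labelled; filled points were called, open points were not, and dashed lines mark a log2 fold change of 1 in either direction. Filled points stand at 8 genes for KO against WT, at 10 for AAV against KO and at 0 for AAV against WT.

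The calls differed in whether they held with a library left out. In KO against WT, Tnni1, Tnnt1, Tnnc1 and Myoz2 were called in all 16 alternative fits, each leave-one-out fit included. The study placed these 4 in its own signature from these same libraries, so their direction is not independent evidence. The other 4 calls in KO against WT were each lost when a single library was left out: Myh7 without WT 2, WT 4 or any KO library (adjusted p from 0.0548 to 0.0711), and Myl3 without WT 2, WT 4, KO 1, KO 2 or KO 4 (0.0574 to 0.108). Myl2 was lost without WT 2, WT 4, KO 1 or KO 4 (0.0689 to 0.0800), and Myh7b without WT 2, WT 4, KO 1 or KO 3 (0.0526 to 0.0639, limma). Over all 8 leave-one-out fits their log2 fold changes ran from -3.16 to -1.85 for Myh7, -4.72 to -3.05 for Myl2, -4.20 to -2.69 for Myl3 and -2.72 to -1.77 for Myh7b, with the direction kept. The fit without WT 1 gave the largest of these for each gene (adjusted p from 0.00116 to 0.0196, all called), and the fit without WT 3 the smallest for Myh7 and Myl3. The number of the 10 called was thus 4 without WT 2, WT 4 or KO 1 and 5 without KO 4. In AAV against KO, 9 of the 10 kept their calls in all 16 fits, and Myh7b was lost without KO 1, KO 2, KO 3, AAV 1 or AAV 2 (0.0515 to 0.0705). Without AAV 4, whose Gaa stood apart, all 10 were called, with log2 fold changes from 2.46 for Ankrd2 to 7.25 for Myl3. Without WT 2, Tnni1, Tnnt1, Tnnc1 and Myoz2 differed by -5.39, -3.49, -3.33 and -2.80 in KO against WT.

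In AAV against WT, leaving out WT 2 and AAV 4 together called none of the 10 either, and the median over the 10 was 1.80. The log2 fold changes were then 0.79 for Tnni1, 1.70 for Tnnt1, 2.53 for Tnnc1, 4.93 for Myh7, 2.85 for Myl2, 4.44 for Myl3, 1.89 for Tpm3, 1.01 for Myh7b, 0.16 for Myoz2 and 0.96 for Ankrd2 (limma adjusted p from 0.129 to 0.898). Over 1.5 times their values with all libraries were those of Tnni1, Tnnt1, Myl2, Myl3 and Myh7b, and Myoz2 changed sign. Further summaries without these libraries were added after the data had been seen. The mean normalized counts in AAV without AAV 4 ran from 320 for Myh7b to 7200 for Ankrd2, with 2411 for Myh7, and in WT without WT 2 from 112 for Myh7 to 4003 for Ankrd2.

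Per kilobase of annotated exon, the order of the levels changed between groups. In WT the mean normalized count per kilobase was 3409 for Ankrd2, 722 for Myoz2, 419 for Tnnt1, 345 for Myl2, 291 for Tnnc1, 220 for Tnni1, 88.5 for Myl3, 78.8 for Tpm3, 22.3 for Myh7b and 12.9 for Myh7. Among neighbours in that order, ranges over the 4 libraries overlapped except between Ankrd2 and Myoz2 and between Tpm3 and Myh7b. In KO, Tnni1 (3.25) and Myh7 (1.53) had the lowest means, below Myh7b (4.65), and Ankrd2 (1260) was again the highest. The KO ranges of Tnni1 (1.81 to 4.28) and Myh7 (1.29 to 1.68) both overlapped that of Myh7b (1.64 to 7.86). The lowest KO library of Myl3 stood at 0.87. In AAV, Tnnc1 (1293), Myl2 (1055) and Tnnt1 (983) came next after Ankrd2 (5409), and all neighbours in the order overlapped.

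The adult myosin heavy chains set Myh7 in scale. Per kilobase, Myh7 made up 0.0008%, 0.0049%, 0.0127% and 0.0047% of the sum of Myh7, Myh2, Myh1 and Myh4 in WT 1 to 4. It made up 0.00041% to 0.00051% in KO, and 0.106%, 0.236%, 0.0438% and 0.0029% in AAV 1 to 4. Slow myosin was thus a trace of the heavy chain RNA in every library. Myh4, the fast IIB chain, made up 88.0% ± 4.4 (SD, n = 4) in WT, 97.0% ± 1.2 in KO and 88.8% ± 4.1 in AAV. Myh2, the IIA chain, made up 1.75% ± 1.08, 0.311% ± 0.190 and 2.44% ± 1.78, and Myh1, the IIX chain, 10.2% ± 4.2, 2.65% ± 0.98 and 8.64% ± 2.84. Without WT 2 and AAV 4, Myh7 averaged 0.00608% in WT and 0.129% in AAV.

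**Figure D3:**
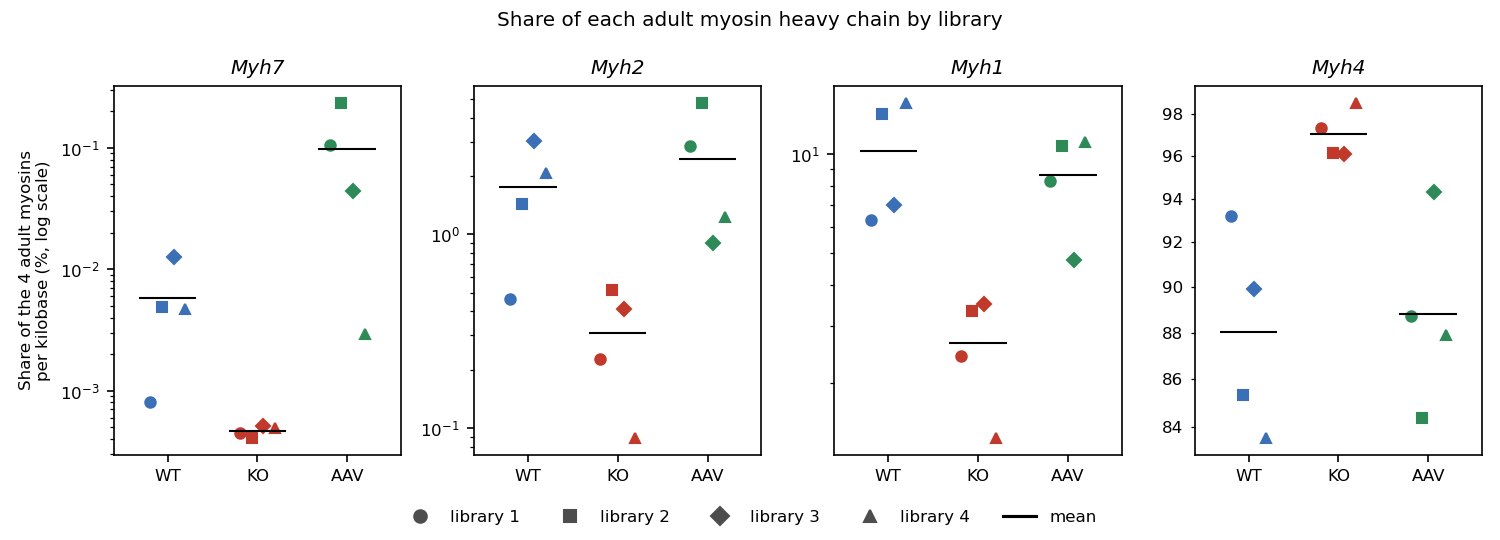
Share of each adult myosin heavy chain in the sum of the 4, per kilobase of exon (%, log scale), by library as labelled; each symbol is 1 library and the bar is the mean of 4. Myh7 stays at or below 0.236% in every library, and Myh4 lies at 96.1% to 98.5% in KO.

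As genes, Myh1 was lower in KO than in WT (log2 fold change -1.36, SE 0.34, adjusted p = 0.0182, limma) and higher in AAV than in KO (1.09, SE 0.28, adjusted p = 0.0218). Myh2 moved the same ways (-1.89, SE 0.62, adjusted p = 0.045, and 2.31, SE 0.59, adjusted p = 0.0207). The first Myh1 call was lost without WT 4 (adjusted p = 0.0544) and the second without KO 4, AAV 1 or AAV 2. The first Myh2 call was lost without any library but WT 1 or KO 2 (adjusted p up to 0.106), and the second without KO 1 or AAV 1 (up to 0.0623). Among the 14 fast contractile genes listed, 1 was called higher (Myl1) and 2 lower (Myh1 and Myh2) in KO against WT, beside 5.43% and 8.5% of all genes, with a median log2 fold change of 0.10. In AAV against KO, 2 were called higher (Myh1 and Myh2) and 1 lower (Myl1), beside 5.43% and 3.55% of all genes, with a median of -0.26.

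The ratio of each slow gene to its fast counterpart, per kilobase, could be formed for 8 of the 10 genes and moves with both genes of a pair. Tnni1 stood at 0.0844% of Tnni2 in WT (range 0.0168% to 0.147%), 0.00117% in KO (0.00067% to 0.00156%) and 0.104% in AAV (0.0359% to 0.199%). Tnnt1 stood at 0.0854%, 0.00441% and 0.166% of Tnnt3, and Tnnc1 at 0.0479%, 0.00391% and 0.194% of Tnnc2. Myoz2 stood at 1.62%, 0.226% and 1.83% of Myoz1. Myl2 stood at 0.0760%, 0.00558% and 0.382% of Mylpf, and its lowest WT ratio, 0.00346%, lay inside the KO range of 0.00154% to 0.00906%. Myh7 stood at 0.0066%, 0.00048% and 0.112% of Myh4. Myl3 stood at 0.188%, 0.00734% and 2.05% of Myl1, which was itself higher in KO, and Tpm3 at 0.0841%, 0.0381% and 0.280% of Tpm1. The KO range lay wholly below the ranges of both other groups for the pairs of Tnni1, Tnnt1, Tnnc1, Myoz2, Myh7 and Tpm3, and for those of Myl2 and Myl3 it overlapped the WT range but not the AAV range. Without WT 2 and AAV 4 the means in WT and AAV were 0.0800% and 0.108% for Tnni1 and 0.156% and 2.72% for Myl3.

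Within groups, the 10 genes did not vary as 1 block. After each library's log2 value was set against its group mean, the Pearson correlation over the 12 libraries was 0.89 between Myh7 and Myl3, 0.89 between Myh7 and Tpm3, and 0.84 between Myh7 and Myl2. It was 0.94 between Tnnt1 and Tnnc1 and 0.88 between Myoz2 and Ankrd2. Tnni1 went with Tnnt1 (0.76) and Tnnc1 (0.60) but not with Myh7 (0.03), Myl3 (-0.13) or Ankrd2 (0.06). These 12 points share library preparation and depth, and the KO deviations of Myl3 and Myh7 rest on few reads. In WT 1 and AAV 4, where Myh7, Myl2 and Myl3 were lowest in their groups, Tnni1 read 625 and 704. In WT 3 and AAV 3, where Tnni1 was lowest in its groups, Myl3 read 376 and 1335. Over the 10 libraries without WT 2 and AAV 4 the correlation was 0.73 between Myh7 and Myl3, 0.88 between Tnni1 and Tnnt1, -0.17 between Tnni1 and Myh7 and -0.50 between Tnni1 and Myl3.

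Among 14 other muscle genes set against the 10, singled out after values had been seen, the correlations with Tnni1 and Myh7 are given side by side, untested. Atp2a2, the slow calcium pump, stood at 0.66 with Tnni1 and 0.51 with Myh7, Vgll2 at 0.45 and 0.24, Actn2 at 0.33 and 0.24, and Myom3 at 0.31 and 0.47. Tnni1 had its highest correlation with Myl4, the atrial and embryonic essential light chain (0.83), and stood at 0.67 with Myh3, the embryonic myosin, at 0.65 with Myh8, the perinatal myosin, and at 0.65 with Tnnt2. For Myh7 the same 4 were -0.34, -0.53, -0.60 and -0.45. Ankrd1 stood at 0.76 with Tnni1 and -0.22 with Myh7, and Casq2, slow and cardiac calsequestrin, at 0.68 and -0.32. Sln stood at 0.60 with Tnni1 and -0.51 with Myh7, and Csrp3 at 0.10 and 0.39. Myh2 stood at 0.68 with Myh7 and 0.05 with Tnni1, and Mb, encoding myoglobin, at 0.73 and -0.04. Without WT 2 and AAV 4, Myl4 stood at 0.91 with Tnni1 and -0.21 with Myh7, and Atp2a2 at 0.69 and 0.16.

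**Figure D4:**
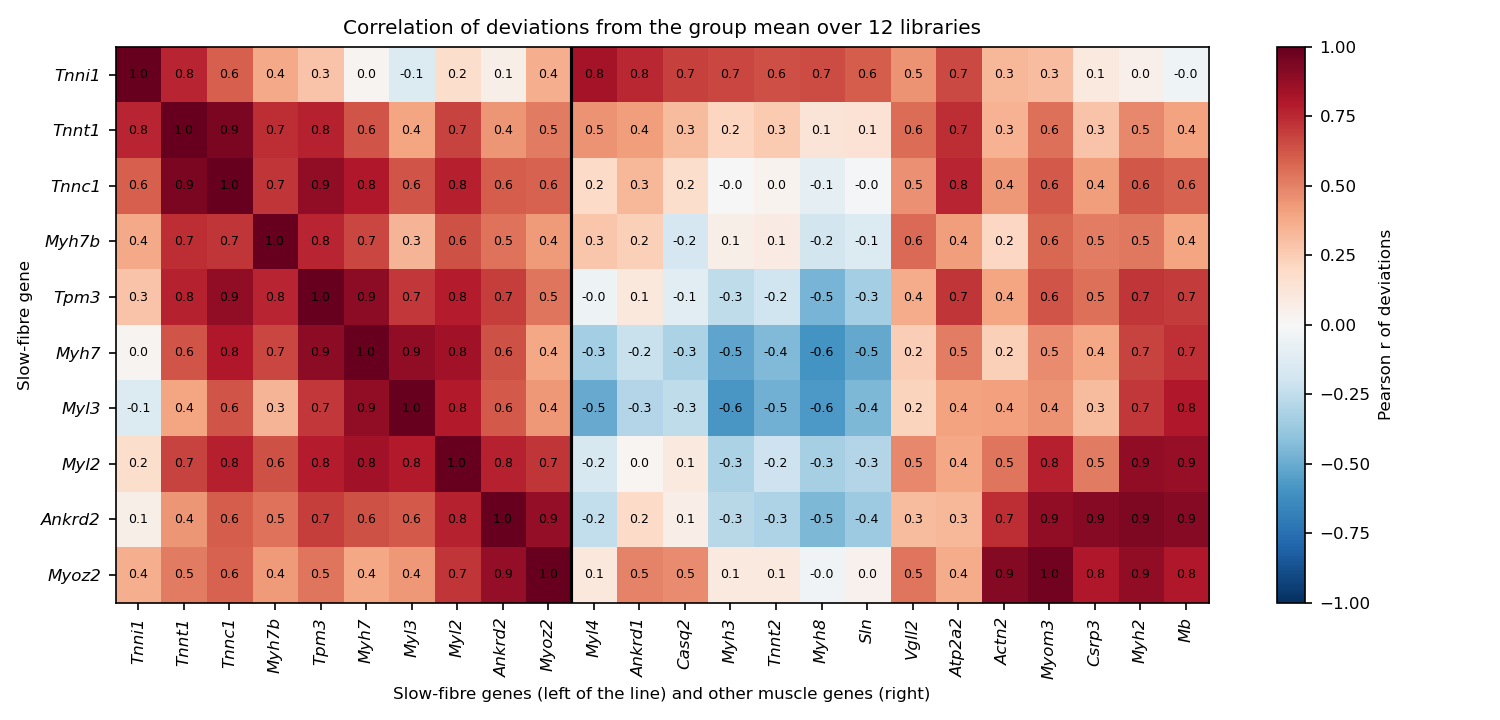
Pearson correlation of each library's deviation from its group mean (log2 scale, 12 libraries) between the 10 slow-fibre genes (rows), the same genes (columns left of the line) and 14 other muscle genes (right). The Tnni1 row is red at Myl4 (0.83) and Myh3 (0.67), where the Myh7 row is blue (-0.34 and -0.53).

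Genes of slow-fibre calcium handling and structure went with the contractile genes in part. Of the 10 listed, 6 were lower and 1 higher in KO against WT (8.5% and 5.43% of all genes), and 5 were higher in AAV against KO (5.43% of all genes), with medians of -1.47 and 1.32. Sln, encoding the calcium pump inhibitor sarcolipin, read 1034, 1455, 48.7 and 1264 in WT 1 to 4, 6.19 to 34.8 in KO and 347, 112, 46.1 and 593 in AAV. It was lowest in WT 3 and AAV 3, as Tnni1 was. Its log2 fold change was -5.37 (SE 1.004, adjusted p = 0.0059, limma) in KO against WT and 3.76 (SE 0.78, adjusted p = 0.0102) in AAV against KO. Casq2, slow and cardiac calsequestrin, differed by -2.30 (adjusted p = 0.00224) and 1.93 (adjusted p = 0.00188), and Actn2, alpha-actinin-2, by -1.84 (adjusted p = 0.00208) and 1.43 (adjusted p = 0.00971). Myom3, an M-band protein, differed by -2.09 (adjusted p = 0.0179) and 2.18 (adjusted p = 0.0179), calls that were lost without WT 2 or WT 4 and without AAV 1. Pln, encoding phospholamban, was the 1 gene higher in KO (1.25, adjusted p = 0.0186, lost without WT 4 or KO 4).

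Of 27 listed regulators of fibre type, among them calcineurin subunits, NFAT, MEF2 and PGC-1 family members, 2 were lower in KO against WT and none higher (8.5% and 5.43% of all genes), and 1 was higher and 1 lower in AAV against KO (5.43% and 3.55% of all genes). On adjusted p alone, 7 were higher and 3 lower in KO against WT, against 12.3% and 15.3% of all genes. In AAV against KO, 4 were higher and 12 lower, against 12.8% and 13.4% of all genes, and 9 lay wholly lower, against 15.8%. The medians over the 27 were 0.25 and -0.48. Vgll2, a TEAD cofactor in muscle, read 2478, 5865, 3014 and 4015 in WT 1 to 4, 595 to 940 in KO and 3827, 2674, 966 and 2060 in AAV. It lay apart from KO in every WT and AAV library, AAV 3 by the least. Its log2 fold change was -2.36 (SE 0.25, adjusted p = 0.000564, limma) in KO against WT and 1.58 (SE 0.35, adjusted p = 0.0135) in AAV against KO. Tead4, which binds MCAT elements, was lower in KO (-1.15, adjusted p = 0.0115), and stood at -0.95 without WT 1, under the fold threshold. Sox6, a repressor of slow-fibre genes, was lower in AAV than in KO (-1.10, SE 0.27, adjusted p = 0.0174). The Sox6 call was lost without KO 1, KO 4, AAV 1 or AAV 4, and with scaling to total reads.

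Of 14 titin, ankyrin and Z-disc partners, 2 were lower in KO against WT (Actn2, above, and Ankrd1) and 1 was higher in AAV against KO (Actn2), beside 8.5% and 5.43% of all genes. Ankrd1, the cardiac relative of Ankrd2, differed by -1.98 (SE 0.65, adjusted p = 0.046, limma) in KO against WT, a call lost without WT 1, WT 2, WT 4, KO 2, KO 3 or KO 4 (adjusted p up to 0.124).

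Both developmental myosins listed, Myh3 and Myh8, were lower in KO than in WT and higher in AAV than in KO. Of the 8 cardiac markers listed, Myl7, Nppa and Mybpc3 were absent from the deposited genes. Of the 5 tested, 2 (Myl4 and Tnnt2) were lower in KO and higher in AAV than in KO, with medians over the 5 of -0.52 and 2.50. Over all genes, 8.5% were lower in KO against WT and 5.43% higher in AAV against KO. Myh3 read 1051, 1040, 166 and 1088 in WT 1 to 4, 65.3 to 116 in KO and 601, 350, 89.8 and 984 in AAV. As for Tnni1 and Sln, the lowest libraries of WT and AAV were those numbered 3. Its log2 fold change was -3.03 (SE 0.55, adjusted p = 0.00513, limma) in KO against WT and 2.18 (SE 0.60, adjusted p = 0.0266) in AAV against KO, and the second call was lost without KO 2, KO 3, KO 4 or AAV 1. Myh8 differed by -2.17 (adjusted p = 0.0144) and 1.58 (adjusted p = 0.00878), Myl4 by -3.23 (adjusted p = 0.00277) and 2.50 (adjusted p = 0.0077), and Tnnt2, cardiac and embryonic troponin T, by -3.57 (adjusted p = 0.00548) and 3.005 (adjusted p = 0.0152). The cardiac markers not called in KO against WT were Myh6 (-0.52), Tnni3 (0.38) and Ryr2 (1.53). The summed level of the 5 was 672 to 3441 in WT, 216 to 268 in KO and 511 to 2594 in AAV. Tnni3, the defining cardiac troponin I, stayed between 4.72 and 26.6 normalized counts in all 12 libraries.

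Of 40 markers tested in 9 lists of other cell types, 2 were lower and 2 higher in KO against WT, where 8.5% and 5.43% of all genes were, and 3 were higher and 0 lower in AAV against KO, where 5.43% and 3.55% were. Of the macrophage markers, 1 of 4 tested was lower in KO: Cd68 (-3.35, adjusted p = 0.00513, limma). Cd163 stood at 0.79 (adjusted p = 0.0344), under the fold threshold, and the 4 summed to 482 to 1191 in WT, 336 to 638 in KO and 342 to 1110 in AAV. Of 5 tendon markers, Scx, a tendon transcription factor, was lower in KO (-2.91, adjusted p = 0.00143) and higher in AAV than in KO (1.64, adjusted p = 0.0101), and the 5 summed to 850 to 1993, 831 to 1219 and 1042 to 1556. In KO against WT 1 of 5 endothelial markers, Cdh5, was higher (1.03, adjusted p = 0.0239, lost without WT 2, WT 4, KO 1, KO 2 or KO 3), and 1 of 5 smooth muscle markers, Myh11 (1.40, adjusted p = 0.0298, lost without any library but WT 1 or WT 3). Endothelial markers summed to 1534 to 4604, 3656 to 4874 and 2969 to 5230, and smooth muscle markers to 4270 to 7365, 7132 to 8802 and 6107 to 8429. Of 3 blood markers tested, Hba-a1 (2.16, adjusted p = 0.0296) and Hba-a2 (1.99, adjusted p = 0.0351), both alpha-globins, were higher in AAV than in KO, and both calls were lost without KO 1, KO 2, AAV 1 or AAV 2. The 3 summed to 327 to 406 in WT, 35.9 to 387 in KO and 363 to 1028 in AAV. Des, encoding desmin, was the 1 of 7 skeletal muscle markers called (-1.03 in KO against WT, adjusted p = 0.00874, under the fold threshold without WT 2 or WT 4). No marker of fibroblasts, adipocytes, Schwann cells or satellite cells was called in any comparison, although the 5 adipocyte markers summed to 205 to 2193 in WT, 353 to 7195 in KO (highest in KO 3) and 844 to 1516 in AAV. In AAV against WT no gene of any of these lists was called. Without WT 2, slow calcium and structural genes counted 3 lower and 1 higher in KO against WT, and without AAV 4 they counted 5 higher in AAV against KO. The part of these cells in the slow-fibre results was not tested.

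The genes whose pattern was most like that of the 10 were sought among 11061 genes with a mean of at least 50, by Pearson correlation over the 12 libraries with the mean of the 10 genes' z scores. The closest 10 were Swi5 (0.981), Gabarapl1 (0.949), Pdlim1 (0.941), Camta1 (0.937), Dhrs4 (0.930), Etfb (0.928), Ift81 (0.927), Myl12b (0.924), Idh2 (0.923) and Ldhb (0.922). Swi5 averaged 3692, 2952 and 4051 normalized counts in WT, KO and AAV. Ldhb, the heart-type lactate dehydrogenase subunit, averaged 2519, 879 and 3311, and in WT 1 it read 923, inside the KO range, as Myl2, Myl3 and Myh7b did.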

How the data were processed

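Quadriceps RNA-seq was analysed from 12 libraries, 4 labelled WT, 4 KO and 4 AAV. According to the methods and processing notes, the authors trimmed reads with Trim Galore 0.4.1, checked them with FastQC 0.11.2, aligned them to GRCm38 with STAR, kept reads at a single location and counted them per gene with HTSeq 0.6.1. A gene was retained if any library had 10 or more reads, and counts were normalized with DESeq2 1.16.1. The deposited values are a signal on the scale of counts divided by size factors. The 2 tables share the KO libraries with a difference of 0, so that AAV and WT stand on one scale. Columns of the authors' own fold changes and p-values were not used. Strand handling is not given in the sources used here. Labels number the mice within a group, and p-values measure the spread between these samples.

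Reads were recovered from the steps between low values: 100% of values came out whole within 0.1. The main test was limma 3.58.1 (R 4.3.3) with an intensity trend on log2(value + 1), on the 8 libraries of each comparison, for genes of at least 10 in any of them, with Benjamini-Hochberg adjustment over all genes tested. Fold changes on that scale understate those of low genes. The script was tested on simulated counts. Alternatives were DESeq2 1.42.0 and edgeR 4.0.16 on recovered reads, TMM and total-read scaling, no filter, a pseudocount of 0.1, a replicate block, all 12 libraries in one fit, adjusted p alone, and leaving out libraries. Counting error alone limits genes with few reads. Positions and exon lengths came from GENCODE M21 on GRCm38, which held 15186 of the 15344 gene IDs, and near copies were found with BLAST 2.17.0. Exon lengths are the union over all annotated isoforms, so levels per kilobase depend on that annotation. Antisense or overlapping genes share exon bases with Myh7, Myl2, Myl3 and Myh7b. Named genes are the 10 members, Gaa, the fast counterparts, the called genes of each further list (per comparison, at most 4, by lowest adjusted p), and the 10 genes most like the members. Members and lists were chosen with earlier results of these data known.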

Additional observations from a re-analysis of the deposited data

Results flagged for a closer look

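In 33 groups of 4 libraries examined (the 10 genes and Gaa in each of 3 groups), a library was marked where its gap to the nearest other passed Dixon's critical value, which chance gives in about 1 of 20 groups. This held for 2 groups, both of Gaa. WT 2 read 14640 normalized counts of Gaa, a gap of 0.991 of the range of the libraries labelled WT, and AAV 4 read 9854, a gap of 0.952. No group of the 10 slow-fibre genes was marked. In WT 2 none of the 10 was the lowest or the highest of the group. In AAV 4, Tnnt1, Tnnc1, Myh7, Myl2, Myl3, Tpm3 and Ankrd2 were the lowest of the group.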

How the results depend on the processing

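The calls of the 10 slow-fibre genes in AAV against KO (10) held within 1 gene in every alternative, 9 to 10 with a library left out. In KO against WT (8) they were 6 to 9 in the alternatives that kept all libraries and 4 to 9 with a library left out. In AAV against WT (0) they were 3 with DESeq2 and 0 to 1 with a library left out. Over all genes, leaving out a library gave 1332 (without WT 2) to 3238 (without WT 3) calls in KO against WT, 787 (without AAV 1) to 1966 (without AAV 3) in AAV against KO and 18 (without AAV 2) to 330 (without WT 3) in AAV against WT. Adjusted p alone gave 4097 and 3910 in the comparisons with KO. On the recovered reads edgeR called 2033, 1418 and 126 genes in the 3 comparisons and DESeq2 2212, 1543 and 417. In AAV against WT, total-read scaling 250, all 12 libraries in one fit 398 and the fit without WT 2 and AAV 4 10, against 142. Total-read scaling moved the median of all genes in AAV against KO from 0.04 to 0.20 and the calls from 809 higher and 529 lower to 1058 and 352. In AAV against WT it moved that median from -0.03 to 0.12. Reversals occurred only in AAV against WT, in values that were not called: Tnni1 without WT 3 (-0.19 to 0.80 over the leave-one-out fits), Myh7b without WT 1 (-0.063 to 0.98), Myoz2 without WT 2, WT 4, AAV 3 or AAV 4 (-0.40 to 0.18), with edgeR (0.015), with total-read scaling (0.080) and without both WT 2 and AAV 4 (0.16). The cause was not tested. Calls also ended for Ankrd1, Cdh5 and Myh11 with edgeR, for Cdh5 with DESeq2, for Ankrd1 and Sox6 with total-read scaling, and for Myh7, Myl3, Ankrd1 and Pln (KO against WT) and Myh8 (AAV against KO) with all 12 libraries in one fit. The replicate block gave 8, 10 and 0 slow-fibre genes and 1830, 1003 and 120 genes. It ended the call of Hba-a2 (adjusted p = 0.061, limma) and of no slow-fibre gene. Correlations of same-numbered deviations ran from -0.115 to 0.025 in KO against WT and from -0.176 to 0.062 in AAV against KO. Numbers thus did not pair libraries in the comparisons with KO. In AAV against WT the correlation was 0.554 between WT 3 and AAV 3 and 0.478 between WT 4 and AAV 4. It was -0.073 for the libraries numbered 1 and -0.355 for those numbered 2. Of 8 libraries, 0, 2 and 4 were closest to their own number in the 3 comparisons. Depth limits Myl3, Myh7 and Tnni1 in KO, at 2 to 27 reads a library. Other members were also low there, with 17 to 35 reads for Tnnc1, 10 to 59 for Myh7b and 14 to 66 for Myl2.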
